A study of Bos taurus with 9 samples.

Results

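The proteasome is the multi-subunit protease that degrades ubiquitin-tagged proteins, and its genes were followed here across chondrocytes after 28 days, mesenchymal stem cells (MSCs) after 28 days and MSCs at day 0. Members were all genes whose single platform symbol starts with PSMA, PSMB, PSMC, PSMD, PSME, PSMF or PSMG, each represented by its probe set (the group of probes for 1 transcript) of highest mean. This gave 40 of 9155 named genes, on 46 of 24016 probe sets, 6 genes having 2 sets. The members were 6 alpha and 7 constitutive beta subunits of the 20S core, 3 inducible beta subunits, 6 ATPase and 7 other subunits of the 19S regulator, 6 assembly chaperones, 3 activators and the regulator PSMF1. PSME3IP1 starts with the same letters and encodes an interactor of an activator, not a subunit.

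Bovine articular chondrocytes and bone marrow MSCs came from the same 3 juvenile calves, aged 3 to 6 months, and were cast into agarose gel, where cells stay round and separate. Chondrocytes and day 28 MSCs were both kept for 28 days in chemically defined medium with 10 ng/mL TGF-beta3, a growth factor that drives cartilage formation. Day 0 MSCs were collected right after embedding, without that culture, so that time, medium and TGF-beta3 cannot be told apart in a comparison with them, and for chondrocytes the cell type and tissue differ as well. Each of the 3 groups held 3 single-colour arrays, 1 per calf (donor). Values are deposited log2 signals, differences are on that scale with the standard error of limma's moderated model, and p-values are limma's, adjusted by Benjamini-Hochberg over all 24016 probe sets, with calls at an adjusted p under 0.05. The number of arrays limits the precision.

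As background, the 20S core is a barrel of stacked rings. The outer alpha rings gate the entry and the inner beta rings hold the proteolytic sites. PSMB6, PSMB7 and PSMB5 are the catalytic subunits of most cells, and PSMB9, PSMB10 and PSMB8 take their places in the immunoproteasome, which immune cells hold and which interferon-gamma induces elsewhere. The 19S regulator recognises, unfolds and feeds in ubiquitin-tagged proteins, whereas PA28 (PSME1 and PSME2) and PA200 (PSME4) are caps that open the gate without ubiquitin recognition.

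Markers of cartilage cells separated both day 28 groups from day 0 MSCs. Of 10 measured chondrocyte markers, 9 were called higher in day 28 MSCs than in day 0 MSCs and 9 in chondrocytes than in day 0 MSCs. Between chondrocytes and day 28 MSCs 1 of the 10 was called higher (median -0.07, differences from -0.31 to 3.93). The other 9 did not pass, so that this check rests on 1 gene for telling the day 28 labels apart. Both low readings of bioC, a control transcript added before hybridisation, were at 8.80, on donor 3 of day 28 MSCs and donor 3 of chondrocytes, against 11.38 to 11.83 on the other 7 arrays. The 3′ minus 5′ signal of 6 control transcripts, a measure of RNA integrity and amplification, averaged 1.81 ± 0.19 in chondrocytes, 1.81 ± 0.20 in day 28 MSCs and 1.34 ± 0.23 in day 0 MSCs (SD, n = 3 each). That measure thus moves with both comparisons against day 0 MSCs, and its part in the results below was not tested. By their means over all 9 arrays, all proteasome genes lay above the 25th percentile of probe set means (2.58) and 39 of 40 above the median (4.99). None was dropped for low signal. A mean over all arrays does not show the signal in each group. In chondrocytes PSMB9 averaged 2.48, below the first mark, and PSMB8 averaged 4.61, below the second. In day 0 MSCs they averaged 6.19 and 8.24.

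In day 28 MSCs, proteasome genes were mostly lower than in day 0 MSCs. Of 40 genes, 20 fell and 2 rose, and the median difference was -0.51. The 20 include PSMD6, whose 2 probe sets disagree, and PSME3IP1, whose call ended under 6 of 22 alternative settings. Without PSME3IP1, which is not a subunit, 19 of 39 fell. Over all 9155 genes 21.0% fell and 13.5% rose, with a median of -0.11, and over the 6224 genes above the median signal 25.3% fell and 16.8% rose. The genes that fell most were the immunoproteasome subunits PSMB9 and PSMB8 and the PA28 subunit PSME1, and those that rose were the 19S assembly chaperone PSMD10 and PA200 (PSME4). The 3 arrays of day 28 MSCs lay wholly below those of day 0 MSCs for 26 genes, where 28.8% of all genes did so, and wholly above for 2, where 18.1% of all genes did so. In bulk samples, fewer cells of a type and less RNA per cell cannot be told apart.

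Chondrocytes were also compared with day 0 MSCs. Here 19 genes fell and 1 rose, with a median difference of -0.62, while 20.9% of all genes fell and 15.1% rose around a median of -0.12. Of the genes above the median signal 25.3% fell and 17.6% rose. The arrays did not overlap for 30 genes that were lower and 2 that were higher in chondrocytes, against 32.3% and 21.6% of all genes. This comparison shares its day 0 arrays with the one above, so the calls are not independent. Without day 0 MSC replicate 1, 12 genes fell in chondrocytes, and the share of all genes that fell was 15.03%. Centring arrays on 74 ribosomal protein genes moved the all-gene median to 0.05 and that of the proteasome genes to -0.45, with 13 lower and 2 higher. Centring on array medians moved these medians to -0.24 and -0.74, with 26 lower and 0 higher. Calls over all genes were 1384 higher and 1915 lower as deposited, 1765 and 1331 with the ribosomal centring, and 1174 and 2531 with the median centring.

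**Figure D1:**
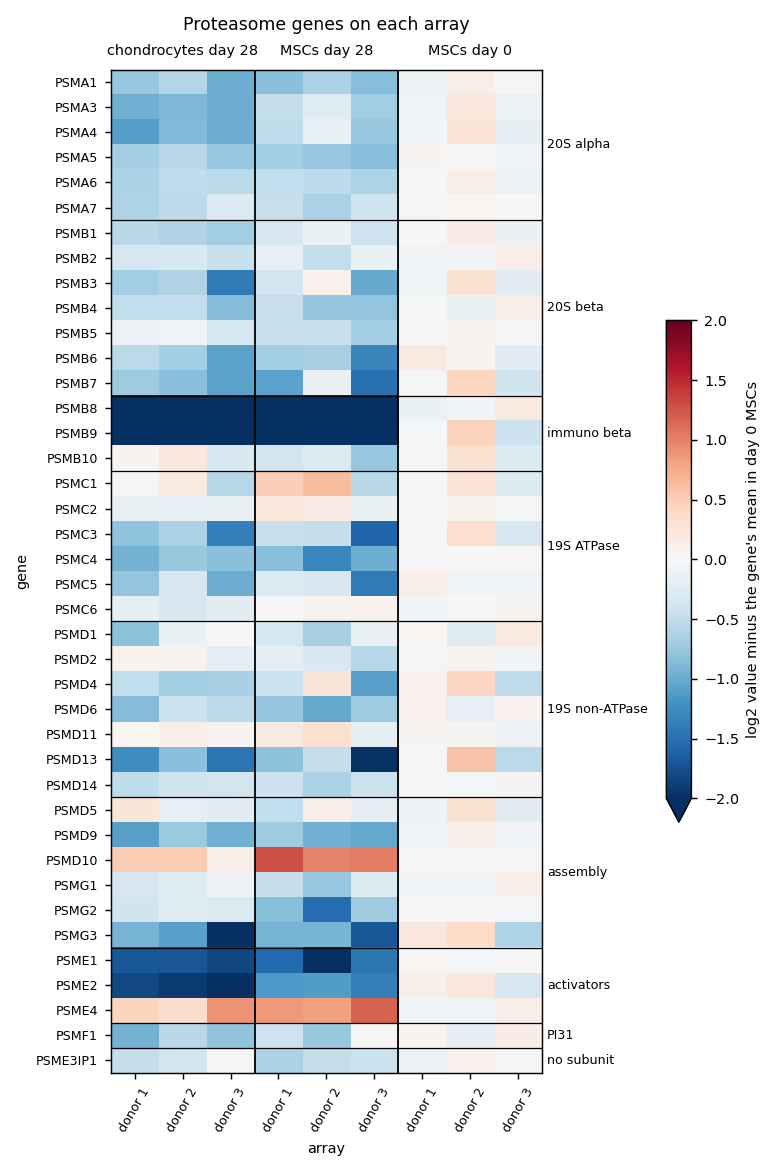
Proteasome genes (rows, by class) on the 9 arrays (columns, 3 donors in each of chondrocytes day 28, MSCs day 28 and MSCs day 0), coloured by the log2 value minus that gene's mean in day 0 MSCs. Most rows are blue on all day 28 arrays, PSMB8 and PSMB9 lie beyond the end of the scale there, and PSMD10 and PSME4 are red.

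Between chondrocytes and day 28 MSCs, cultured alike, the share of proteasome genes called lower lay near that of all genes. PSME2 and PSMD10, 5% of the members, were lower in chondrocytes and 0 of 40 were called higher, with a median difference of -0.03. Over all genes 4.81% were lower and 8.35% higher, with a median of -0.02, and above the median signal 6.20% and 9.25%. At an unadjusted p under 0.05, 6 members were lower and 3 higher, against 13.1% and 15.6% of all genes. Wholly separated arrays were seen for 7 lower genes (17.5% of the members) and 3 higher genes, against 15.1% and 16.9% of all genes. The count of lower genes was 0 without chondrocyte replicate 3 or day 28 MSC replicate 1, and 1 without day 28 MSC replicate 2 or chondrocyte replicate 1 or 2. Over all genes the calls were 764 higher and 440 lower as deposited, 976 and 297 with the ribosomal centring, which moved the all-gene median to 0.10, and 672 and 594 with the median centring.

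Of the inducible catalytic subunits, PSMB8 and PSMB9 gave the largest differences of the family and PSMB10 was not called. PSMB8, the immunoproteasome counterpart of PSMB5, read 4.81, 4.75 and 4.27 in chondrocytes, 4.78, 4.57 and 5.68 in day 28 MSCs, and 8.10, 8.17 and 8.43 in day 0 MSCs (donors 1, 2 and 3 throughout). Every day 28 array thus lay more than 2 log2 units below every day 0 array. On the day 28 arrays PSMB8 lay at the 43.1 to 55.6 percentile of probe sets, against the 78.1 to 81.0 percentile in day 0 MSCs. In day 28 MSCs PSMB8 fell by 3.22 ± 0.28 against day 0 MSCs (9.34-fold lower, limma adjusted p = 6.35e-05), and in chondrocytes by 3.63 ± 0.28 (12.4-fold lower, adjusted p = 2.91e-05). Chondrocytes and day 28 MSCs differed by -0.40 ± 0.28, which did not pass (adjusted p = 0.449).

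PSMB9, the counterpart of PSMB6, read 2.66, 2.31 and 2.49 in chondrocytes, 2.71, 2.51 and 2.94 in day 28 MSCs, and 6.17, 6.66 and 5.76 in day 0 MSCs. It fell by 3.47 ± 0.23 in day 28 MSCs (11.1-fold lower, limma adjusted p = 1.51e-05) and by 3.71 ± 0.23 in chondrocytes (13.1-fold lower, adjusted p = 7.85e-06), both against day 0 MSCs. Counting from the lowest difference, it ranked 70 of 9155 genes in the first of these comparisons and 41 in the second, and PSMB8 ranked 88 and 49. On the day 28 arrays PSMB9 lay at the 21.1 to 26.9 percentile of probe sets in chondrocytes and at the 25.7 to 31.2 percentile in day 28 MSCs, against the 56.7 to 64.5 percentile in day 0 MSCs. Its day 28 values lie around the 25th percentile of probe set means, near the low end of the arrays, where background signal compresses differences. The folds and ranks are therefore those of the measured signal and not exact sizes of a change in RNA, and the order of the day 28 groups carries no test (difference -0.24 ± 0.23, adjusted p = 0.614).

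PSMB10, the counterpart of PSMB7, did not share this pattern. It read 7.12, 7.30 and 6.76 in chondrocytes, 6.68, 6.78 and 6.31 in day 28 MSCs, and 7.02, 7.36 and 6.80 in day 0 MSCs. Its difference between chondrocytes and day 0 MSCs was 0.00 ± 0.21 (limma adjusted p = 0.992). Day 28 MSCs differed from day 0 MSCs by -0.47 ± 0.21 (adjusted p = 0.125), with arrays that do not overlap, and with the donor as a block this difference passed (adjusted p = 0.0236). For chondrocytes against day 28 MSCs it was 0.47 ± 0.21 (adjusted p = 0.210).

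Of the constitutive catalytic subunits, PSMB5, which carries the chymotrypsin-like site, read 10.79, 10.84 and 10.55 in chondrocytes, 10.44, 10.46 and 10.21 in day 28 MSCs, and 10.89, 10.96 and 10.86 in day 0 MSCs. It fell by 0.53 ± 0.14 in day 28 MSCs (limma adjusted p = 0.0154), a call that ended without day 28 MSC replicate 3 (adjusted p = 0.0519). In chondrocytes it differed from day 0 MSCs by -0.18 (adjusted p = 0.371). PSMB6, which carries the caspase-like site, read 8.76, 8.61 and 8.22 in chondrocytes, 8.59, 8.63 and 7.98 in day 28 MSCs, and 9.48, 9.34 and 9.06 in day 0 MSCs. It fell by 0.90 ± 0.22 in day 28 MSCs (adjusted p = 0.0134) and by 0.76 ± 0.22 in chondrocytes (adjusted p = 0.0276). The first call ended without day 0 MSC replicate 1 (adjusted p = 0.0527). The second ended with ribosomal centring (adjusted p = 0.0563) and without day 0 MSC replicate 1 or 2, or chondrocyte replicate 2 or 3 (adjusted p from 0.0558 to 0.0948).

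PSMB7, which carries the trypsin-like site, read 10.34, 10.21 and 9.97 in chondrocytes, 9.98, 10.92 and 9.55 in day 28 MSCs, and 11.01, 11.48 and 10.66 in day 0 MSCs. Donor 2 of day 28 MSCs overlapped the day 0 range, and chondrocytes did not. Day 28 MSCs differed by -0.90 ± 0.33 and chondrocytes by -0.88 ± 0.33 from day 0 MSCs. Neither difference passed (limma adjusted p = 0.0723 and 0.0771), and both passed with the donor as a block (adjusted p = 0.0163 and 0.0180).

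**Figure D2:**
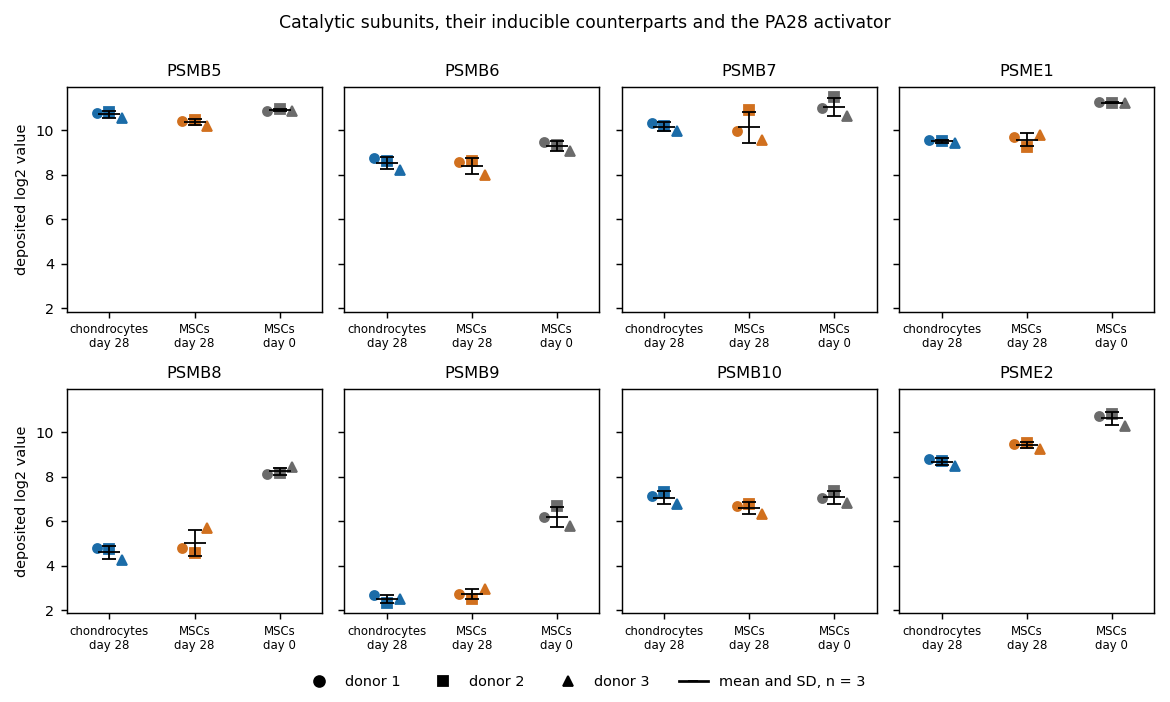
Deposited log2 values of the constitutive catalytic subunits and PSME1 (top) and of their inducible counterparts and PSME2 (bottom) in chondrocytes day 28, MSCs day 28 and MSCs day 0, with 1 symbol per donor and the mean and SD (n = 3). PSMB8 and PSMB9 drop by more than 3 log2 units on average in both day 28 groups, PSMB10 does not, and heights should be compared within a panel only.

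Each inducible subunit was also set against the subunit it replaces on the same array. Probe sets differ in affinity, so that a single such difference has no meaning of its own and only its shift between groups was read. PSMB8 minus PSMB5 was -5.98, -6.09 and -6.28 in chondrocytes, -5.66, -5.89 and -4.52 in day 28 MSCs, and -2.78, -2.78 and -2.44 in day 0 MSCs. The shift was -2.69 in day 28 MSCs and -3.45 in chondrocytes, both against day 0 MSCs, and -0.76 between chondrocytes and day 28 MSCs. PSMB9 minus PSMB6 shifted by -2.58, -2.95 and -0.37 in the same comparisons, and PSMB10 minus PSMB7 by 0.43, 0.87 and 0.44. So against day 0 MSCs PSMB8 and PSMB9 fell by more than their partners, and PSMB10 did not fall relative to PSMB7 in any comparison. Between chondrocytes and day 28 MSCs the shift of -0.76 also holds a difference of 0.36 in PSMB5, which did not pass by limma. PSMB8 itself differed there by 0.03, 0.18 and -1.42 in donors 1, 2 and 3. By 2-sided exact permutation tests of 3 arrays against 3, where 0.1 is the smallest p possible, p was 0.1 for 7 of the 9 shifts (0.129 after adjustment over the 9), 0.5 for PSMB9 minus PSMB6 between chondrocytes and day 28 MSCs, and 0.4 for PSMB10 minus PSMB7 between day 28 and day 0 MSCs. This test takes no account of the shared donors, and with 3 arrays against 3 it cannot reach 0.05.

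The PA28 activator, often induced together with the immunoproteasome, fell as well. PSME1, its alpha subunit, read 9.55, 9.54 and 9.43 in chondrocytes, 9.68, 9.24 and 9.80 in day 28 MSCs, and 11.27, 11.22 and 11.24 in day 0 MSCs, with no overlap between day 28 and day 0. It fell by 1.67 ± 0.16 in day 28 MSCs (3.18-fold lower, limma adjusted p = 9.48e-05) and by 1.74 ± 0.16 in chondrocytes (3.34-fold lower, adjusted p = 7.33e-05). The day 28 groups differed by -0.07 ± 0.16 (adjusted p = 0.864).

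PSME2, the beta subunit of PA28, was graded over the 3 groups. It read 8.81, 8.71 and 8.50 in chondrocytes, 9.46, 9.50 and 9.25 in day 28 MSCs, and 10.74, 10.84 and 10.27 in day 0 MSCs, and no group overlapped another. It fell by 1.21 ± 0.18 in day 28 MSCs (2.32-fold lower, limma adjusted p = 9.10e-04) and by 1.94 ± 0.18 in chondrocytes (3.85-fold lower, adjusted p = 7.14e-05) against day 0 MSCs. In chondrocytes it was 0.73 ± 0.18 below day 28 MSCs (1.66-fold lower, adjusted p = 0.0303). That call ended when any 1 array of either day 28 group was left out, day 28 MSC replicate 3 apart, with adjusted p from 0.0550 to 0.0929, and without both low-bioC arrays (adjusted p = 0.0925).

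PSME4, the PA200 cap, went the opposite way. It read 10.66, 10.56 and 11.12 in chondrocytes, 11.07, 11.04 and 11.40 in day 28 MSCs, and 10.16, 10.14 and 10.35 in day 0 MSCs. Donor 3 was highest in every group, and both day 28 groups lay wholly above day 0. It rose by 0.95 ± 0.18 in day 28 MSCs (1.94-fold higher, limma adjusted p = 0.00360) and by 0.56 ± 0.18 in chondrocytes (1.48-fold higher, adjusted p = 0.0411). The second call did not pass with median centring, without both low-bioC arrays, or with 6 of the arrays left out in turn: each of the 3 day 0 MSC replicates, day 28 MSC replicate 1, and chondrocyte replicates 1 and 3 (adjusted p from 0.0526 to 0.127). PSME3, the nuclear PA28 gamma, was not analysed here. PSMF1 (PI31), which binds the core and was first described as an inhibitor, read 8.25, 8.65 and 8.39 in chondrocytes, 8.80, 8.44 and 9.23 in day 28 MSCs, and 9.25, 9.01 and 9.35 in day 0 MSCs. It fell by 0.77 ± 0.21 in chondrocytes against day 0 MSCs (adjusted p = 0.0217), a call that ended with ribosomal centring and without day 0 MSC replicate 1 or 3 or chondrocyte replicate 1 or 3 (adjusted p up to 0.0791), while its difference in day 28 MSCs was -0.38 ± 0.21 (adjusted p = 0.217).

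The rings of the 20S core fell by less and more evenly. In day 28 MSCs, 5 of 6 alpha subunits fell, with a median of -0.52 and a range from -0.78 to -0.47. In chondrocytes all 6 measured alpha subunits fell (PSMA1, PSMA3, PSMA4, PSMA5, PSMA6 and PSMA7), with a median of -0.72 and a range from -0.99 to -0.47. Of all genes 21.0% and 20.9% fell in these comparisons with day 0 MSCs. PSMA5 had the smallest p in day 28 MSCs, with 10.39, 10.32 and 10.23 against 11.14, 11.07 and 11.03 in day 0 MSCs (-0.76 ± 0.12, limma adjusted p = 0.00141). In chondrocytes PSMA3 had the smallest p, with 10.10, 10.15 and 10.05 against 10.96, 11.27 and 10.93 in day 0 MSCs (-0.95 ± 0.16, adjusted p = 0.00174). The calls of PSMA3 and PSMA7 were the least stable of the ring. In day 28 MSCs that of PSMA3 (-0.48 ± 0.16, adjusted p = 0.0446) ended under 14 of 22 alternatives (adjusted p up to 0.161), among them leaving out any 1 array except day 28 MSC replicate 2, and that of PSMA7 under 4 (without any 1 of the day 0 MSC replicates or without day 28 MSC replicate 2). In chondrocytes that of PSMA7 ended under 7 (adjusted p up to 0.144): ribosomal centring, cyclic loess, without any 1 of the day 0 MSC replicates, and without chondrocyte replicate 1 or 2. PSMA4 was the alpha subunit that did not pass in day 28 MSCs (-0.47 ± 0.19, adjusted p = 0.0915), and it passed with the donor as a block (adjusted p = 0.0380).

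Of the 7 constitutive beta subunits, 3 fell in day 28 MSCs (PSMB4, PSMB5 and PSMB6) and 3 in chondrocytes (PSMB1, PSMB4 and PSMB6), with medians of -0.53 and -0.62 and all 7 differences below 0 in both. As shares, 42.9% fell in either comparison, where 21.0% and 20.9% of all genes fell. Among all 9155 genes, 5417 and 5430 differences were below 0. PSMB4, a structural subunit, fell by 0.67 ± 0.16 in day 28 MSCs (limma adjusted p = 0.0118) and had the smallest p of the ring there. Its call in chondrocytes ended under 5 of 22 alternatives (adjusted p up to 0.0711): ribosomal centring, without both low-bioC arrays, and without day 0 MSC replicate 1 or 3 or chondrocyte replicate 3. In chondrocytes the smallest p was that of PSMB1, another structural subunit, which fell by 0.62 ± 0.13 (adjusted p = 0.00747). PSMB3 differed from day 0 MSCs by -0.90 ± 0.31 in chondrocytes (adjusted p = 0.0516) and passed with the donor as a block (adjusted p = 0.00416). Both probe sets of PSMB2 were lower than in day 0 MSCs, the brighter one without a call (-0.26 and -0.36 in day 28 MSCs and chondrocytes) and the dimmer one with one (-0.51 and -0.60, adjusted p = 0.0399 and 0.0203).

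Calls were fewer in the 19S regulator. Of its 13 measured subunits, 3 fell in day 28 MSCs and 3 in chondrocytes, against 8 and 9 of the 13 constitutive core subunits, and the medians were -0.42 and -0.43 against -0.53 and -0.66. As shares these are 23.1% of the regulator in both and 61.5% and 69.2% of the core. Of all genes 21.0% and 20.9% fell, so that without the donor as a block the regulator's share of calls lay near the background. With that block PSMC3 and PSMD13 were called lower as well in both comparisons, where 23.6% and 23.3% of all genes fell. In the core the block added PSMA4 and PSMB7 in day 28 MSCs, and PSMB3 and PSMB7 in chondrocytes. The regulator's medians lay below the all-gene medians of -0.11 and -0.12. At an unadjusted p under 0.05, 6 of the 13 subunits of the regulator were lower in each comparison, against 27.5% and 27.9% of all genes. Its 3 calls include PSMD6, whose direction is not settled. Whether the core and the regulator differ was not tested. Among the ATPases, which form the unfolding ring, PSMC4 alone fell in both comparisons. It read 8.13, 8.31 and 8.23 in chondrocytes, 8.22, 7.76 and 8.10 in day 28 MSCs, and 9.06, 9.08 and 9.07 in day 0 MSCs, and the day 28 groups lay wholly below. Its difference from day 0 MSCs was -1.04 ± 0.15 in day 28 MSCs (limma adjusted p = 7.11e-04) and -0.85 ± 0.15 in chondrocytes (adjusted p = 0.00220). For PSMC2 and PSMC6, other ATPases of the ring, the differences of the brighter sets from day 0 MSCs lay between -0.25 and 0.08 and none passed. Those of their dimmer sets lay between -0.21 and 0.16, also without a call. With median centring PSMC6 passed in chondrocytes (-0.37 ± 0.12, limma adjusted p = 0.0372).

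PSMC3 varied widely between donors, with 9.46, 9.63 and 8.88 in chondrocytes, 9.79, 9.77 and 8.65 in day 28 MSCs, and 10.27, 10.58 and 9.91 in day 0 MSCs. Donor 3 was lowest in each group. Its differences from day 0 MSCs of -0.85 ± 0.33 in day 28 MSCs and -0.93 ± 0.33 in chondrocytes did not pass (limma adjusted p = 0.0868 and 0.0621), and both passed with the donor as a block (adjusted p = 0.00650 and 0.00430). PSMC5 is a further ATPase whose 2 probe sets disagreed. The brighter one differed by -0.70 ± 0.30 in chondrocytes against day 0 MSCs (adjusted p = 0.110), and the dimmer one, near the middle of the signal range, was called higher by 0.59 ± 0.18 (adjusted p = 0.0332).

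Among the 7 measured non-ATPase subunits of the 19S regulator, PSMD14, the deubiquitinase of the lid, fell by 0.50 ± 0.12 in day 28 MSCs (limma adjusted p = 0.0130) and by 0.43 ± 0.12 in chondrocytes (adjusted p = 0.0258) against day 0 MSCs. The call in chondrocytes ended under 8 of 22 alternatives (adjusted p up to 0.176): ribosomal centring, cyclic loess, without both low-bioC arrays, without any 1 of the day 0 MSC replicates, and without chondrocyte replicate 1 or 2. PSMD6, a lid subunit, gave opposite readings from its 2 probe sets. The brighter one, which stands for the gene, read 10.20, 10.64 and 10.55 in chondrocytes, 10.30, 10.06 and 10.36 in day 28 MSCs, and 11.16, 10.90 and 11.16 in day 0 MSCs. The dimmer one read 7.74, 7.56 and 7.73 in chondrocytes, 7.97, 7.37 and 8.51 in day 28 MSCs, and 5.82, 4.75 and 5.77 in day 0 MSCs. By the first the gene fell by 0.83 ± 0.16 in day 28 MSCs (adjusted p = 0.00424) and by 0.61 ± 0.16 in chondrocytes (adjusted p = 0.0191). By the second it was higher by 2.50 ± 0.34 (adjusted p = 5.77e-04) and by 2.22 ± 0.34 (adjusted p = 0.00111), and which transcript each set reads cannot be settled from the values, so the direction of PSMD6 is not settled.

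PSMD13, a lid subunit, had the largest difference of the regulator that did not pass. It read 6.45, 6.85 and 6.23 in chondrocytes, 6.86, 7.21 and 5.70 in day 28 MSCs, and 7.66, 8.25 and 7.14 in day 0 MSCs. The differences of -1.09 ± 0.40 in day 28 MSCs and -1.18 ± 0.40 in chondrocytes (limma adjusted p = 0.0705 and 0.0526) passed with the donor as a block (adjusted p = 0.00444 and 0.00320). PSMD11, a lid subunit, differed by 0.10 and 0.07 in the same comparisons, and PSMD2, a large subunit of the base, by -0.35 and -0.01, none of them passing.

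**Figure D3:**
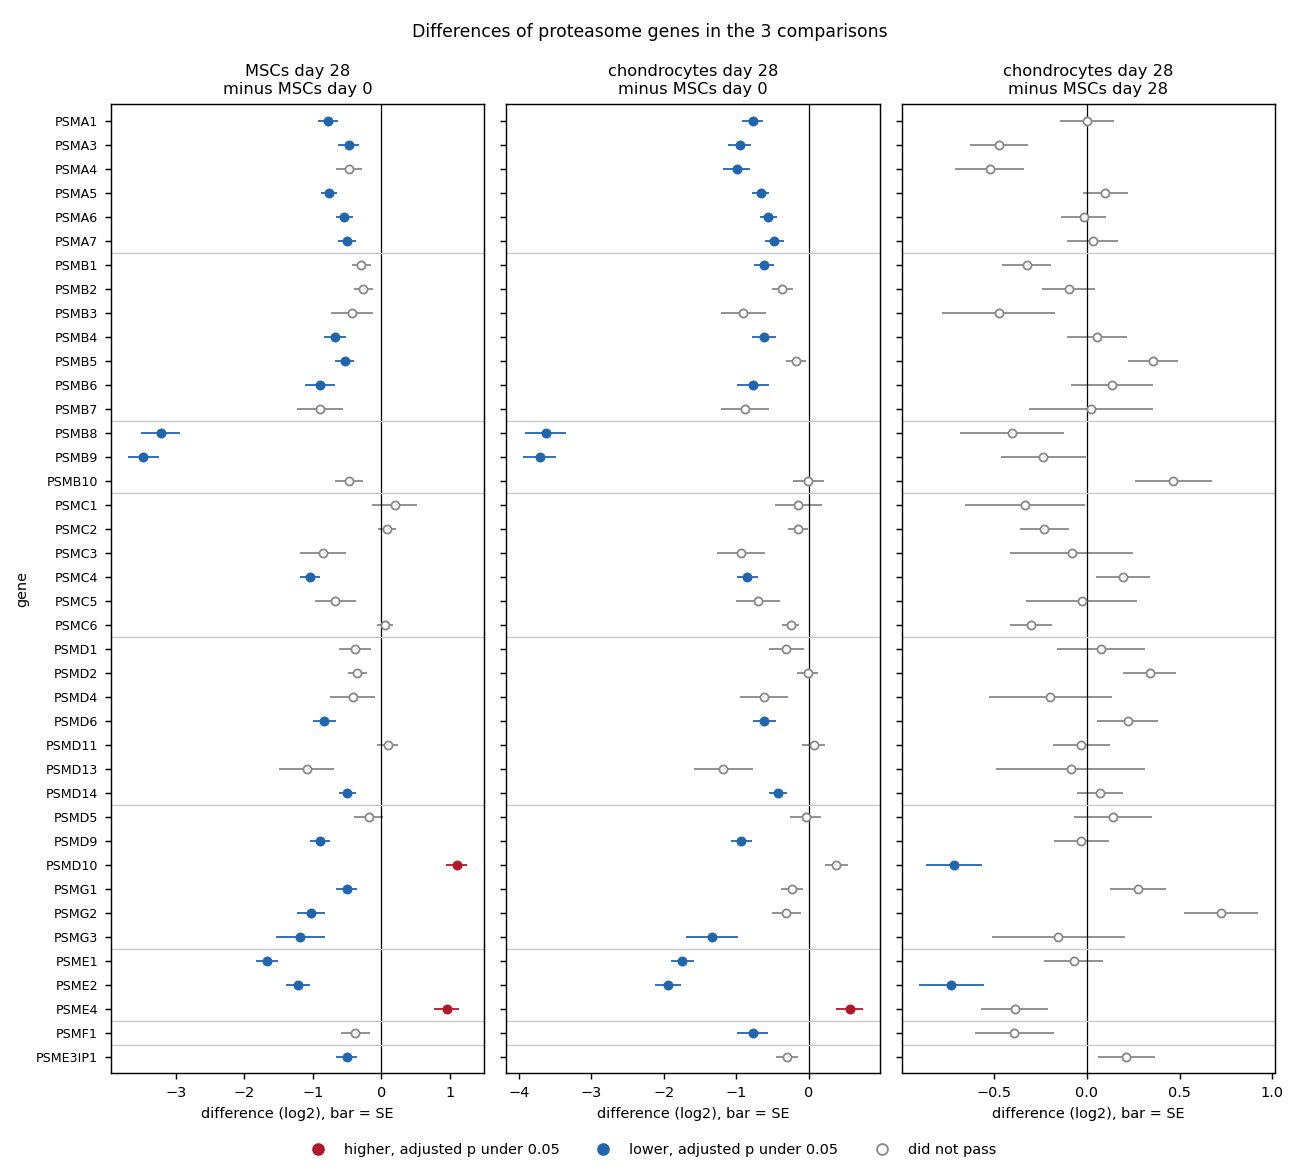
Difference of each proteasome gene (log2, point) with its standard error (bar) for MSCs day 28 minus MSCs day 0, chondrocytes day 28 minus MSCs day 0 and chondrocytes day 28 minus MSCs day 28, each panel with its own axis range. Filled points passed an adjusted p of 0.05, and 20, 19 and 2 of 40 genes are filled as lower.

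Assembly chaperones, which help to build the particle and leave it when it is complete, were mostly lower than in day 0 MSCs, with PSMD10 as the exception. In day 28 MSCs 4 of 6 fell and 1 rose against day 0 MSCs (median -0.70), and in chondrocytes 2 fell (median -0.27). As shares, 66.7% and 33.3% fell, where 21.0% and 20.9% of all genes did. In each comparison 5 of the 6 differences were below 0. PSMD10 (gankyrin), a chaperone of the 19S base, read 8.53, 8.53 and 8.15 in chondrocytes, 9.32, 9.01 and 9.04 in day 28 MSCs, and 8.03, 8.05 and 7.99 in day 0 MSCs, and the 3 groups did not overlap. It rose by 1.10 ± 0.15 in day 28 MSCs (2.14-fold higher, limma adjusted p = 6.90e-04) and was lower in chondrocytes than in day 28 MSCs by 0.72 ± 0.15 (1.64-fold lower, adjusted p = 0.0178). The call between chondrocytes and day 28 MSCs ended without day 28 MSC replicate 1 (adjusted p = 0.0557) or chondrocyte replicate 3 (adjusted p = 0.0516), without both low-bioC arrays (adjusted p = 0.0650) and in a fit of those 2 groups alone (adjusted p = 0.0515). Chondrocytes differed from day 0 MSCs by 0.38 ± 0.15 (adjusted p = 0.0878).

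PSMD9, another chaperone of the base, went the other way from PSMD10 in MSCs. It fell by 0.90 ± 0.15 in day 28 MSCs (limma adjusted p = 0.00172) and by 0.93 ± 0.15 in chondrocytes (adjusted p = 0.00148) against day 0 MSCs. PSMG1 and PSMG2, partners in the assembly of the alpha ring, fell in day 28 MSCs by 0.50 ± 0.15 (adjusted p = 0.0329) and by 1.03 ± 0.20 (adjusted p = 0.00417). The call of PSMG1 ended under 9 of 22 alternatives (adjusted p up to 0.0989): ribosomal centring, cyclic loess, a fit of those 2 groups alone, without any 1 of the day 0 MSC replicates, without day 28 MSC replicate 1 or 2, and without chondrocyte replicate 2. PSMG2, picked out after its values were seen, read 9.32, 9.48 and 9.44 in chondrocytes, 8.87, 8.20 and 9.01 in day 28 MSCs, and 9.73, 9.73 and 9.70 in day 0 MSCs. Chondrocytes lay wholly between, 0.72 ± 0.20 above day 28 MSCs (adjusted p = 0.0527) and -0.31 ± 0.20 from day 0 MSCs (adjusted p = 0.288). PSMG3, an alpha ring chaperone, fell by 1.18 ± 0.36 in day 28 MSCs (adjusted p = 0.0341) and by 1.34 ± 0.36 in chondrocytes (adjusted p = 0.0202). Its call ended without day 0 MSC replicate 1 or 2 in both, without day 28 MSC replicate 3 or both low-bioC arrays in day 28 MSCs (adjusted p up to 0.113), and without chondrocyte replicate 3 in chondrocytes (adjusted p up to 0.0724).

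**Figure D4:**
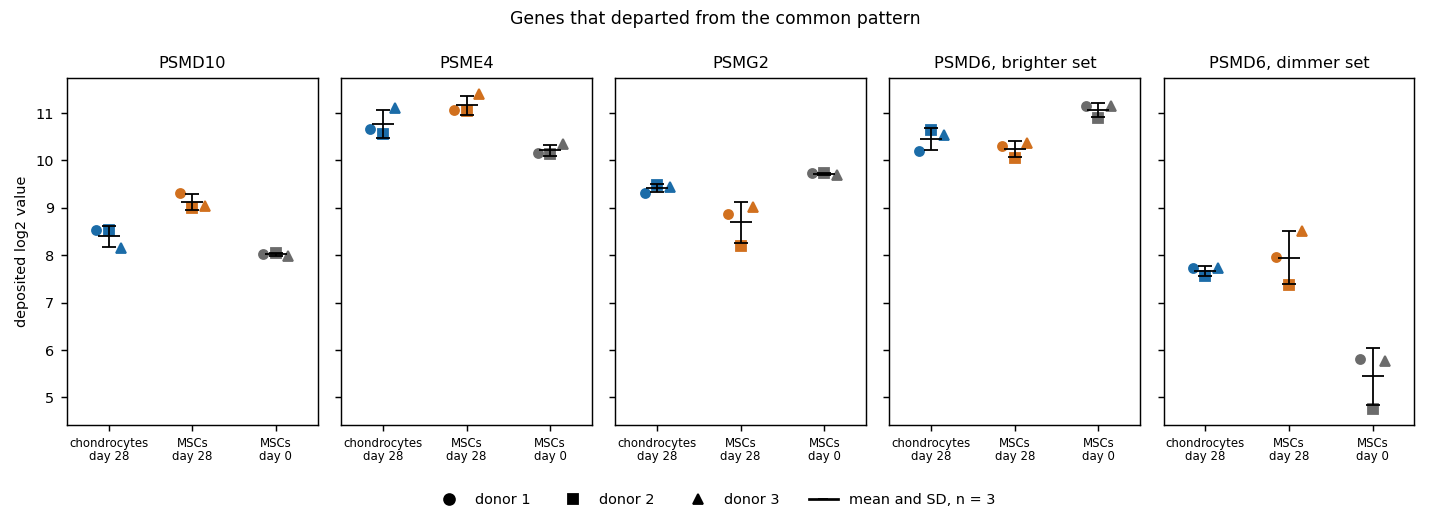
Deposited log2 values of PSMD10, PSME4, PSMG2 and both probe sets of PSMD6 in chondrocytes day 28, MSCs day 28 and MSCs day 0, with 1 symbol per donor and the mean and SD (n = 3). PSMD10 and PSME4 are higher in day 28 than in day 0 MSCs, PSMG2 is lowest in day 28 MSCs, and the 2 probe sets of PSMD6 point in opposite directions.

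Donors ranked alike in the groups for part of the family. Donor 3 was lowest in all 3 groups for 15 of 40 genes, where 10.1% of all genes showed this, and donor 2 highest in all 3 for 8, where 5.92% did. For PSMA3, PSMB3, PSMB5, PSMB10, PSMC1 and PSMD13 both held. Donor 3 was lowest for 22 of 40 genes in chondrocytes (36.8% of all genes), 23 in day 28 MSCs (35.9% of all genes) and 23 in day 0 MSCs (33.5% of all genes). Its bioC was 8.80 in chondrocytes, 8.80 in day 28 MSCs and 11.63 in day 0 MSCs, and the part of bioC in this order was not tested. Without both low-bioC arrays, 18 genes were lower in day 28 than in day 0 MSCs, all of them among the 20 lower on all arrays, and the same 2 were higher. In chondrocytes 18 were lower than in day 0 MSCs, of which 17 were among the 19, and 1 was higher, which was PSMD10 (limma adjusted p = 0.0435) and no longer PSME4 (adjusted p = 0.0866). Over all genes that setting gave 18.0% lower and 11.7% higher in day 28 MSCs, and 18.2% and 13.4% in chondrocytes.

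Other lists were read beside the proteasome genes. In every list the counts stand beside the shares of all genes, which were 21.0% lower and 13.5% higher in day 28 against day 0 MSCs, 20.9% and 15.1% in chondrocytes against day 0 MSCs, and 4.81% and 8.35% in chondrocytes against day 28 MSCs. In the RefSeq gene order PSMB8, TAP1 and PSMB9 lie next to each other on chromosome 23 with TAP2 close by, and PSME2 and PSME1 are separated by 1 gene on chromosome 10. TAP1 and TAP2 form the transporter that carries proteasome-made peptides to MHC class I molecules. Of 11 measured genes of class I antigen processing, 4 fell and 0 rose in day 28 MSCs (median -0.72), and 5 fell and 0 rose in chondrocytes (median -0.61), both against day 0 MSCs. Between chondrocytes and day 28 MSCs 0 of the 11 passed by limma, with a median of 0.17.

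TAP1 read 3.99, 3.81 and 3.96 in chondrocytes, 4.79, 4.10 and 5.53 in day 28 MSCs, and 5.56, 5.88 and 6.58 in day 0 MSCs. It fell by 1.20 ± 0.36 in day 28 MSCs (limma adjusted p = 0.0313) and by 2.08 ± 0.36 in chondrocytes (adjusted p = 0.00219). TAP2 fell by 0.78 ± 0.16 and by 0.61 ± 0.16 (adjusted p = 0.00522 and 0.0174), and B2M, the light chain of class I molecules, by 0.79 ± 0.25 and by 1.35 ± 0.25 (adjusted p = 0.0398 and 0.00340). ERAP2, a peptide-trimming enzyme, also fell in both, by 0.72 ± 0.21 and 0.71 ± 0.21 (adjusted p = 0.0259 and 0.0269), from values of 2.90 to 3.52 in day 0 MSCs, near the low end of the arrays.

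Few interferon-responsive genes and interferon regulators were called. Of 24 measured, 3 fell and 0 rose in day 28 MSCs (median -0.08), and 3 fell and 0 rose in chondrocytes (median -0.42), both against day 0 MSCs, and 0 passed between chondrocytes and day 28 MSCs (median -0.43). The groups share an estimate of the spread. The median deviation of the 24 from their day 0 means was -0.26, -0.59 and 0.54 on the day 28 MSC arrays. In chondrocytes it was -0.46, -0.44 and -0.35. There 20 of 24 differences from day 0 MSCs were below 0, where 5430 of 9155 genes were. The arrays did not overlap for 11 of the 24, against 4938 of all genes. GBP1, an interferon-gamma-induced GTPase, fell by 2.91 ± 0.67 in day 28 MSCs (limma adjusted p = 0.00953) and by 3.89 ± 0.67 in chondrocytes (adjusted p = 0.00225). IFNGR2, a chain of the interferon-gamma receptor, fell by 0.75 ± 0.13 (adjusted p = 0.00250) and by 1.03 ± 0.13 (adjusted p = 4.87e-04). IRF3 fell in day 28 MSCs (-0.60 ± 0.18, adjusted p = 0.0309) and IFI35 in chondrocytes (-1.15 ± 0.29, adjusted p = 0.0158).

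One day 28 array held high interferon-induced transcripts, a reading picked out after the values were seen. ISG15, a ubiquitin-like interferon product, read 2.92, 2.71 and 3.95 in chondrocytes, 4.85, 2.65 and 10.70 in day 28 MSCs, and 4.16, 4.27 and 6.81 in day 0 MSCs. MX1, an antiviral GTPase, read 3.00, 2.53 and 3.20 in chondrocytes, 4.06, 2.62 and 11.17 in day 28 MSCs, and 4.93, 6.91 and 7.86 in day 0 MSCs. The log2 of the summed signal of the 24 genes was 11.93 to 12.01 in chondrocytes, 11.97 to 13.91 in day 28 MSCs and 12.26 to 12.55 in day 0 MSCs. On that array, donor 3 of day 28 MSCs, PSMB8 was 5.68, PSMB9 2.94, PSME1 9.80 and TAP1 5.53, each the highest of the 6 day 28 values and below every day 0 value. PSME2 was 9.25, the lowest of day 28 MSCs. Without it PSMB8 fell by 3.56 ± 0.20 (limma adjusted p = 2.36e-05) and PSMB9 by 3.58 ± 0.25 (adjusted p = 5.47e-05) in day 28 MSCs.

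**Figure D5:**
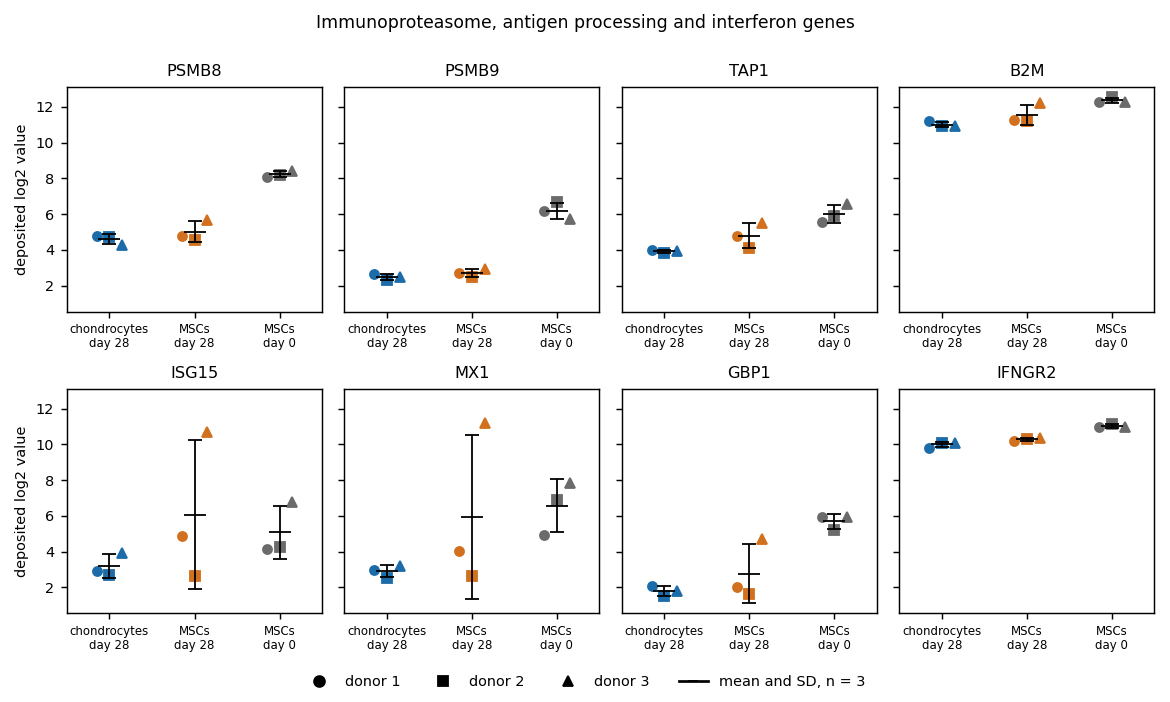
Deposited log2 values of PSMB8, PSMB9, TAP1 and B2M (top) and of ISG15, MX1, GBP1 and IFNGR2 (bottom) in chondrocytes day 28, MSCs day 28 and MSCs day 0, with 1 symbol per donor and the mean and SD (n = 3). Donor 3 of day 28 MSCs reads 10.70 for ISG15 and 11.17 for MX1, and its PSMB8 and PSMB9 lie below every day 0 array.

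Blood cells hold immunoproteasomes, and marrow-derived MSCs can carry them along. Of 12 measured blood cell markers, 4 fell and 1 rose in day 28 MSCs, and 4 fell and 2 rose in chondrocytes, both against day 0 MSCs. The log2 of their summed signal was 9.11 to 9.48 in chondrocytes, 8.88 to 9.27 in day 28 MSCs and 9.25 to 10.1 in day 0 MSCs. CTSS, a lysosomal protease of antigen-presenting cells, fell by 1.15 in day 28 MSCs (limma adjusted p = 7.26e-04), CD68 by 1.47, AIF1 by 2.08 and TYROBP by 2.43, and CSF1R rose by 1.62. PTPRC, the pan-leukocyte CD45, lay between the 15.8 and 29.3 percentile of probe sets on all 9 arrays, the T cell gene CD3E between 7.93 and 17.8, and ITGAM between 5.07 and 7.15, with no value on the log2 scale that marks absence. In day 0 MSCs AIF1 read 4.91, 5.28 and 2.45 and TYROBP 5.43, 5.92 and 3.22, so donor 3 was low for both, and its summed signal of 9.25 was the lowest of the group. In day 0 MSCs donor 3 was also the lowest for PSMB9 (5.76) and PSME2 (10.27), between the others for PSME1 (11.24) and the highest for PSMB8 (8.43). The part of blood cells in the immunoproteasome result was not tested.

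Proteasome partners without a PSM symbol were called lower or not called. Of 8 measured, 3 fell and 0 rose in day 28 MSCs (median -0.33) and 4 fell and 0 rose in chondrocytes (median -0.42) against day 0 MSCs, and 0 passed between chondrocytes and day 28 MSCs (median -0.11). POMP, the maturation factor of the 20S core, fell by 0.52 ± 0.12 in day 28 MSCs (limma adjusted p = 0.0107) and by 0.51 ± 0.12 in chondrocytes (adjusted p = 0.0119). TXNL1, a thioredoxin-like protein bound to the 19S regulator, fell by 1.03 ± 0.17 (adjusted p = 0.00177) and by 1.49 ± 0.17 (adjusted p = 2.45e-04). PAAF1, a 19S assembly chaperone, fell by 0.73 ± 0.20 and by 0.87 ± 0.20 (adjusted p = 0.0229 and 0.0103), and the ubiquitin receptor ADRM1 fell in chondrocytes by 0.93 ± 0.26 (adjusted p = 0.0228). The deubiquitinase USP14 differed by -0.03 and -0.10 and did not pass.

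Regulators of proteasome genes showed no common direction. NFE2L1, the factor that raises proteasome transcription when the protease is inhibited, read 9.82, 9.88 and 9.83 in chondrocytes, 9.90, 10.25 and 9.70 in day 28 MSCs, and 10.00, 10.06 and 9.93 in day 0 MSCs, overlapping for day 28 MSCs and not for chondrocytes. Its differences from day 0 MSCs were -0.04 and -0.15, and neither passed (limma adjusted p = 0.868 and 0.502). NFE2L2, the oxidative stress factor, differed by 0.11 in day 28 MSCs (adjusted p = 0.646). In chondrocytes it fell by 0.95 ± 0.16 against day 0 MSCs (adjusted p = 0.00194) and was 1.06 ± 0.16 below day 28 MSCs (adjusted p = 0.00326). Of 14 measured regulators, 2 rose and 0 fell in day 28 MSCs (FOXO4 by 1.02 and NFYA by 0.99), 1 rose and 2 fell in chondrocytes against day 0 MSCs, and 2 were lower in chondrocytes than in day 28 MSCs (FOXO4 by 0.95, beside NFE2L2).

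Few ubiquitin-activating enzymes and shuttle factors were called. Of 10 measured, 2 rose and 1 fell in day 28 MSCs (median 0.01) and 1 fell in chondrocytes (median -0.35), both against day 0 MSCs, and 1 was lower in chondrocytes than in day 28 MSCs (median -0.43). At an unadjusted p under 0.05, 6 of the 10 were lower in chondrocytes than in day 28 MSCs, where 13.1% of all genes were. The shuttle factors UBQLN4 and UBQLN2 rose by 0.91 ± 0.15 and 0.80 ± 0.17 in day 28 MSCs (limma adjusted p = 0.00157 and 0.00702). SQSTM1, the autophagy receptor p62, fell by 0.47 ± 0.12 in day 28 MSCs (adjusted p = 0.0157) and by 1.07 ± 0.12 in chondrocytes (adjusted p = 2.00e-04) against day 0 MSCs. Between chondrocytes and day 28 MSCs it differed by -0.61 ± 0.12 (adjusted p = 0.0123). UBA1, the main ubiquitin-activating enzyme, differed from day 0 MSCs by -0.01 and 0.51 and did not pass.

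Cytosolic chaperones share substrates with the proteasome. Of 21 measured, 9 fell and 2 rose in day 28 MSCs (median -0.36) and 10 fell and 2 rose in chondrocytes (median -0.41) against day 0 MSCs, and 0 passed between chondrocytes and day 28 MSCs. As shares, 42.9% and 47.6% fell and 9.52% rose in either comparison. HSPH1, a nucleotide exchange factor of HSP70, fell by 1.21 ± 0.17 in day 28 MSCs (limma adjusted p = 8.22e-04), and CCT2, a subunit of the folding chamber CCT, by 0.72 ± 0.12 (adjusted p = 0.00233) and in chondrocytes by 1.07 ± 0.12 (adjusted p = 2.72e-04). BAG3, a cochaperone of selective autophagy, rose by 0.53 ± 0.14 in day 28 MSCs (adjusted p = 0.0180) and by 0.89 ± 0.14 in chondrocytes (adjusted p = 0.00139). The probe sets of the other riser, HSPA1A, disagreed: the set used rose by 1.39 in day 28 MSCs, and another fell by 1.25.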

How the data were processed

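Per the labels' protocols, total RNA from each of the 9 samples was extracted with trizol, turned into cDNA from poly(T) primers, amplified linearly and biotinylated, so that signal comes mainly from 3′ ends. The deposited values are log2 intensities. Per the submitters' processing notes the tool was RMA, of no stated version. It gives each array nearly the same distribution and would hide any change in RNA content per cell. Of 24128 probe sets, 112 controls were left out. Symbols came from the platform annotation: 13292 probe sets had 1 symbol, 86 several and 10638 none, and RefSeq gene identifiers matched 13263. RefSeq was used for names and gene order only.

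The 24016 remaining probe sets entered 1 linear model with a mean per group, with lmFit and eBayes of limma 3.58.1 under R 4.3.3. The script was tested on simulated data. The donor block and the alternatives of the closing section changed 1 setting at a time. Donor numbers mark the same calf: arrays of 1 donor deviated together from their group means in 9 of 9 pairs (r from 0.108 to 0.412), while for 18 pairs of different donors r ran from -0.303 to 0.152. No 2 arrays of a group were identical (r from 0.978 to 0.990). Catalytic pairs were compared by exact permutation tests. The members and lists were chosen with earlier results of these data known. Every member could be named. Values per array were fixed for the catalytic subunits, activators, PSMF1, the 2 largest called rises and falls and disagreeing probe sets, and other lists are given by counts and the members of smallest p. Other per-array values were picked after they were seen.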

Additional observations from a re-analysis of the deposited data

How the results depend on the processing

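With the donor as a block, 25 genes were lower and 2 higher in day 28 than in day 0 MSCs, 23 lower and 1 higher in chondrocytes than in day 0 MSCs, and 2 lower and 0 higher in chondrocytes than in day 28 MSCs. Over all genes the block gave 23.6% lower and 14.96% higher, 23.3% and 16.6%, and 6.39% and 9.89% in these comparisons. Besides the calls gained that are given above, the block changed no call of a proteasome gene. Between chondrocytes and day 28 MSCs 1 gene, PSMG2, was higher with ribosomal centring, cyclic loess, either filter on low signal, the mean of probe sets, a trended and robust variance, array weights or low bioC as a block. The count lower was 1 in a fit of those 2 groups alone and 0 without both low-bioC arrays. For chondrocytes against day 0 MSCs the count higher was 0 with median centring and 2 with ribosomal centring, the mean of probe sets, the set of largest SD, array weights or the bioC block. The cause of these moves was not tested. PSMD6 reversed to 0.84 (mean of its probe sets) and 2.50 (set of largest SD) in day 28 MSCs, and to 0.81 and 2.22 in chondrocytes, by the opposite reading of its dimmer set. Leaving out 1 array at a time gave 14 to 20 lower and 2 to 2 higher in day 28 against day 0 MSCs, 12 to 24 and 0 to 1 in chondrocytes against day 0 MSCs, and 0 to 2 and 0 to 1 in chondrocytes against day 28 MSCs. The share of all genes lower ran from 16.2% to 20.1%, from 15.03% to 22.1% and from 2.02% to 5.32% in these comparisons. PSMB8, PSMB9, PSME1, PSME2, PSMC4, PSMD9, PSMA1, PSMA5 and PSMA6 stayed called in both comparisons with day 0 MSCs under every alternative that measured them.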

Other observations

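BOLA, the class I heavy chain of cattle that presents peptides made by the proteasome, read 12.18, 12.04 and 3.51 in chondrocytes, 11.88, 12.06 and 2.89 in day 28 MSCs, and 11.58, 11.85 and 5.49 in day 0 MSCs. The signal of its probe set was thus low for donor 3 in every group. Whether the RNA itself was low in that donor was not tested. This gene was chosen after its values were seen. Its differences between groups were within that spread, and none passed by limma (adjusted p from 0.895 to 0.974).

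UFD1, a cofactor of the unfoldase VCP that delivers proteins to the proteasome, also had probe sets that disagreed and was picked after its values were seen. The brightest set differed by -0.37 ± 0.28 in day 28 against day 0 MSCs (limma adjusted p = 0.373), whereas the next was higher by 3.40 ± 0.29 (adjusted p = 5.29e-05).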
